A study of Mus musculus with 6 samples.

Results

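MicroRNA and small nucleolar RNA (snoRNA) genes made up 210 of the 14897 genes measured in cancer stem cells and bulk cells sorted from mouse breast tumors. They were chosen by name alone, as the genes whose symbol begins with Mirlet, with Mir and a digit, or with Snora or Snord, so that no measured level entered the choice. Among them were 141 microRNA genes, 26 box H/ACA snoRNA genes (Snora), 40 box C/D snoRNA genes (Snord) and 3 long host transcripts of microRNAs (Mir17hg, Mir22hg and Mirlet7bhg). The cells came from 2 spontaneous breast tumors of FVB/N mice (strain FVBN in the labels). Each tumor was driven by the polyoma virus middle T antigen from the MMTV promoter, which is active in mammary epithelium (MMTV-PyMT). Every population therefore carried the same oncogene, and no normal mammary gland was among them. Flow cytometry gave CD29hi CD61+ breast cancer stem cells (BCSCs, P1), ALDH+ BCSCs (P2) and the bulk cells (P0), which are labeled non-CSC (not cancer stem cells) and are not a whole tumor. Each population had 1 library per tumor, so n = 2 per population, and the same 2 tumors gave all 3 populations. The labels give neither the ages of the mice nor whether both tumors came from 1 mouse, so p-values measure the spread between these 2 tumors only.

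MicroRNAs are short RNAs that are cut from hairpins in longer transcripts and that repress mRNAs matching their seed, the bases near their 5′ end. In breast tissue the let-7 family is known for restraining stem-like growth, and the microRNA cluster carried by Mir17hg is known as a target of Myc. Box C/D snoRNAs guide ribose methylation and box H/ACA snoRNAs guide pseudouridylation of ribosomal RNA, and most of both classes are trimmed out of introns of host genes. Neither mature microRNAs nor mature snoRNAs carry a poly(A) tail, and these libraries were made from poly(A) RNA. The reads described here therefore do not measure the mature small RNA. How many of them came from spliced, unspliced or precursor host transcripts was not tested.

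The mature microRNAs encoded at the loci on which the results below turn are shown for orientation, 5′ to 3′, with the seed (bases 2 to 8) in capitals. They were taken from RefSeq for GRCm38.p6.
let-7d-5p: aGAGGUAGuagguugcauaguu
miR-1982-5p: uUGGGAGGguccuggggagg
miR-22-3p: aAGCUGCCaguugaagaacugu
miR-19b-3p: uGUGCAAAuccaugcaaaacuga
miR-19a-3p: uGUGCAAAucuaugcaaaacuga
miR-5121: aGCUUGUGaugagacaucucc
miR-1945: uCUUCGCGgguacugucgggac
miR-21a-5p: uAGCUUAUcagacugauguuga
The let-7d-5p sequence lies at chr13:48536078-48536099 on the minus strand, within an exon of the non-coding gene 6720427I07Rik. The miR-1982-5p sequence lies at chr10:80828808-80828827 on the plus strand, in an intron of Oaz1 that some annotated transcripts retain. The sequences of miR-19b-3p (chr14:115044358-115044380) and miR-19a-3p (chr14:115044048-115044070) share the seed GUGCAAA and lie in the plus-strand Mir17hg transcript, as background a cluster cut from 1 precursor. miR-5121 (chr7:45126925-45126945, minus strand) lies within Rpl13a, which encodes a protein of the large ribosomal subunit. RefSeq gave a mature sequence for 129 of the 141 microRNA genes, and 8 seeds were shared by mature sequences of different names.

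The libraries held between 19037070 and 48008802 reads in genes, in P2 of tumor 2 and P1 of tumor 1. The 210 genes together took 0.0583% to 0.0804% of a library's reads. In tumor 1 most of them were at 0 reads or well above it, as the plot of reads in each library shows. Of the 210 genes, 103 had no reads in P1 of tumor 1, 155 had none in P2 and 138 had none in P0. In tumor 2 the genes without reads numbered 25 in P1, 65 in P2 and 17 in P0, although the tumor 1 libraries were the deeper ones. The genes that did have reads in tumor 1 had a median of 129 reads in P1, 191 in P2 and 216 in P0, against 32, 27 and 27 in tumor 2. Only 8 genes in P1, 6 in P2 and 7 in P0 of tumor 1 had between 1 and 20 reads, against 64, 54 and 77 in tumor 2. Reads were found in all 6 libraries for 30 of the 210 genes, in no tumor 1 library for 78 and in no tumor 2 library for 1.

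**Figure D1:**
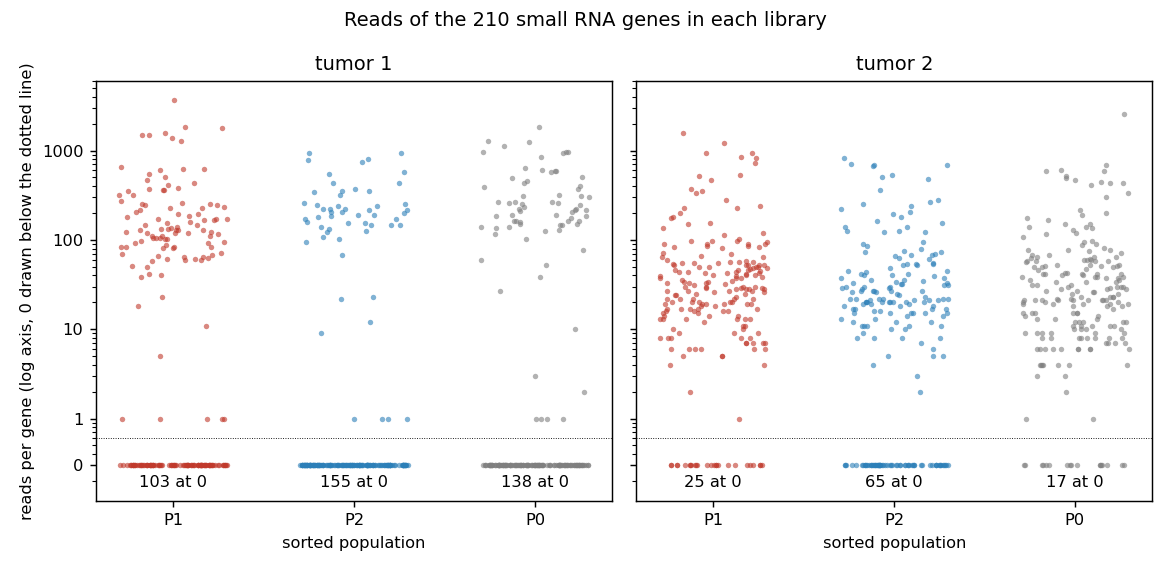
Reads of each of the 210 microRNA and snoRNA genes (1 point per gene, log axis, 0 drawn below the dotted line) in the P1, P2 and P0 libraries of tumor 1 (left) and tumor 2 (right). In tumor 1, 103 to 155 genes lie at 0 and few lie between 1 and 20 reads, whereas in tumor 2 the genes spread over low read numbers and 17 to 65 lie at 0.

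Missing reads in tumor 1 were not limited to small RNA genes. Among the other genes, 12.5% in P1, 25.5% in P2 and 21.5% in P0 of tumor 1 had no reads, against 2.27%, 4.73% and 2.91% in tumor 2. The share was higher for small RNA genes than for other genes also at similar read numbers. Of genes with 51 to 100 reads in P2 of tumor 2, 17 of 19 small RNA genes (89.5%) and 645 of 1197 other genes (53.9%) had no read in P2 of tumor 1. Of genes with 21 to 50 reads there, 34 of 47 (72.3%) and 865 of 1237 (69.9%) had none. Of genes with over 100 reads in P2 of tumor 2, 4 of 25 small RNA genes (16%) and 877 of 10522 other genes (8.33%) had none. These sets were not matched on gene length. The median length was 78 bp for small RNA genes other than host transcripts and 2904 bp over all genes. Only 7 other genes were under 300 bp, and 5 of them had no reads in each tumor 1 library. In tumor 2, 3 of these 7 had none in P1, 3 in P2 and 0 in P0. Each gene is therefore given below by its value in both tumors. The sources used here do not say whether low values were set to 0 in either tumor. A 0 therefore need not mean that fewer than 3 reads were found. In tumor 2, too, few of the 210 genes had 1 or 2 reads. There 27 in P1, 66 in P2 and 20 in P0 were under 3 reads, against 25, 65 and 17 at 0. Limits on a fold change are given for tumor 2 alone, where fewer genes were at 0 and a library without reads was put at 3 reads. They hold only if a 0 there stands for fewer than 3 reads, which was not tested. They cover counting error only, because reads are not independent molecules.

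Nearly every locus lay inside another gene, on the same strand for most. Of the 207 genes other than the 3 host transcripts, 62 lay in exons of an annotated gene, 42 in introns that some annotated transcripts retain, 88 in other introns and 14 outside genes, while 1 (Mir1957b) was not located. A locus was placed in exons, or in a retained intron, when at least 50% of its bases lay there. Of the 88 loci in other introns, 19 therefore still touched an exon. The gene that holds the locus, called its host here, was in the table for 183 of them, as 156 different hosts. The host lay on the opposite strand for 6 loci in exons, 1 in a retained intron and 6 in other introns. Those of them with a host in the table stayed in the ratios and correlations below. Ribosomal protein genes, counted together with Gnb2l1 (the host of Snord95 and Snord96a), were the hosts of 18 box C/D, 11 box H/ACA and 5 microRNA genes. Rpl13a held 5 (Mir5121, Snord32a, Snord33, Snord34 and Snord35a) and Mir17hg held 4 (Mir19a, Mir19b-1, Mir20a and Mir92-1).

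The level of a small RNA gene relative to its host differed by where the locus lay. On the scale of RPKM (reads scaled to gene length and library size), the median ratio of small RNA gene to host was 1.09 for the 57 loci in exons, with quartiles of 0.335 and 2.40. The ratio was 0.239 for the 41 in retained introns, with quartiles of 0.0563 and 0.619. For the 85 loci in other introns it was 0.292, with quartiles of 0.0775 and 0.936. The small RNA gene stood above its host in 30 of 57 exonic loci, in 1 of 41 retained introns and in 21 of 85 other introns. These shares are a description over loci of the same 6 libraries, and no test was made of them.

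**Figure D2:**
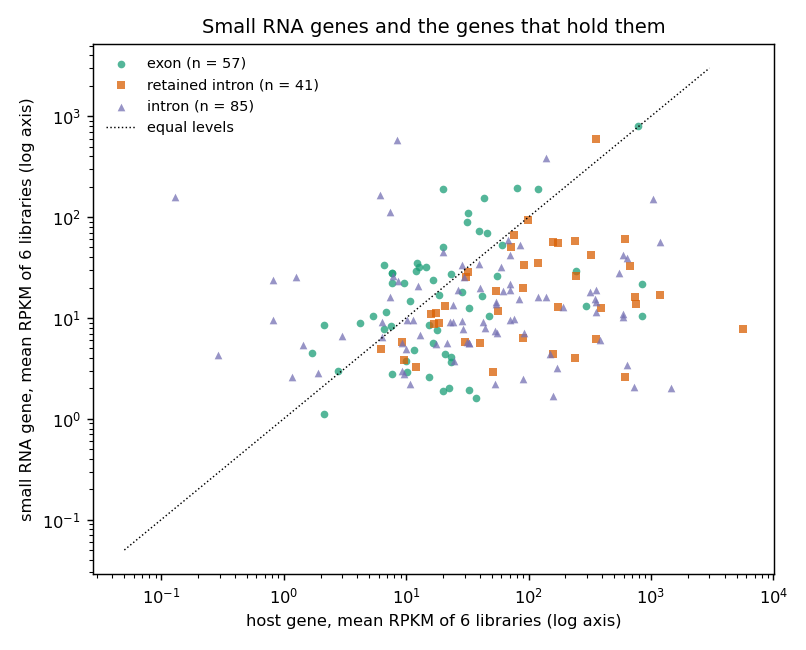
Mean RPKM over 6 libraries of 183 small RNA genes (vertical, log axis) against that of the gene holding each (horizontal, log axis), by place of the locus. Exonic loci (circles) scatter around the dotted line of equal levels with a median ratio of 1.09, and loci in retained introns (squares) lie below it except for 1.

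The microRNA loci with the most reads had reads in all 6 libraries. Mir5121 had 3695 and 1557 reads in P1, 790 and 832 in P2 and 587 and 428 in P0 (tumor 1 first, as in all pairs below). Mir3064 lies in an exon of Ddx5, an RNA helicase of the microRNA-processing complex, and had 1797 and 1204 reads in P1, 580 and 715 in P2 and 1249 and 2546 in P0. Mir1198, in an intron of Gripap1, had 1584 and 855 reads in P1, 746 and 678 in P2 and 1840 and 495 in P0. These 3 loci had at least 428 reads in each library. The mean level of Mir1198 over all 6 libraries was 580 RPKM, against 8.47 RPKM for Gripap1, whereas Mir3064 stood at 797 RPKM against 779 RPKM for Ddx5. Mir692-2 and Mir692-3 had the same reads in every library, 1482 and 936 in P1, 948 and 696 in P2 and 964 and 586 in P0. Mir692-2 lies in an intron of Grik3 (0.129 RPKM) and Mir692-3 at another locus, and reads of near-identical copies cannot be told apart here.

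The box C/D genes with the most reads were Snord22, Snord37, Snord57, Snord93 and Snord2. Snord22 lies in Snhg1, a gene whose known products are snoRNAs, and had 367 and 230 reads in P1, 340 and 221 in P2 and 372 and 305 in P0. Snord37, in an intron of the elongation factor gene Eef2, had 437 and 177 reads in P1, 238 and 125 in P2 and 397 and 62 in P0. Both had reads in every library. Snord57, in the snoRNA-protein gene Nop56, had 105 and 90 reads in P1, 217 and 25 in P2 and 187 and 64 in P0. Snord93, in an intron of 2700038G22Rik, had 251 and 55 reads in P1, 354 and 37 in P2 and 159 and 27 in P0. Snord2, in the initiation factor gene Eif4a2, had 168 and 41 reads in P1, 1 and 123 in P2 and 254 and 75 in P0, so that its single low library was P2 of tumor 1.

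Of the 5 box H/ACA genes with the most reads, 3 stood lower in both P2 libraries than in both P0 libraries. Snora3, in the ribosomal protein gene Rpl27a, had 269 and 137 reads in P1, 1 and 15 in P2 and 508 and 68 in P0. Snora31, in the intron of the growth-related gene Tpt1, had 84 and 227 reads in P1, 0 and 75 in P2 and 436 and 188 in P0. Snora75, in the nucleolin gene Ncl, had 195 and 91 reads in P1, 0 and 14 in P2 and 52 and 65 in P0. For Snora3 and Snora75 both P2 libraries lay below every P1 library as well. Snora28, in Eif5, had 509 and 97 reads in P1, 0 and 69 in P2 and 0 and 129 in P0. Snora65, in Rpl12, had 246 and 55 reads in P1, 0 and 61 in P2 and 395 and 23 in P0, and the values of its 3 populations overlapped.

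ALDH+ BCSCs (P2) were compared with bulk cells (P0) to ask which transcripts differ in this stem cell population. The level of small RNA genes was lower in P2 more often than higher, with Mirlet7d and Mir1982 at the far end. Mirlet7d, a locus of the let-7 family, had no read in either P2 library and 455 and 136 reads in P0, and P1 had 379 and 34. Against the limit of 3 reads its level in tumor 2 was at least 44.4-fold lower in P2 than in P0. Mir1982 had no read in either P2 library and 574 and 59 reads in P0, and P1 had 111 and 81. Its level in tumor 2 was at least 19.2-fold lower in P2 than in P0.

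For Mirlet7d and Mir1982 both P2 libraries lay below all P0 libraries without overlap. With limma (log2(RPKM + 1), p adjusted by Benjamini-Hochberg over 12512 genes) their log2 fold changes were -6.52 ± 0.71 and -6.57 ± 0.72 (SE), each with an adjusted p of 0.0821. When the tumor entered limma as a replicate block, the adjusted p was 0.0101 for Mirlet7d and 0.0273 for Mir1982, so both were called as lower in P2, 2 of the 3 genes (0.024% of all tested genes) called there. With a pseudocount of 0.1 they were the only genes called (0.016% of all tested genes). Over 14 alternative settings the adjusted p ranged between 0.0101 and 0.999 for Mirlet7d, which was called in 3, and between 0.0207 and 0.957 for Mir1982, which was called in 4. The fitted values depend on the added 1 RPKM, since P2 is at 0.

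The host of Mir1982 is Oaz1, an inhibitor of polyamine synthesis. Its level was 122 and 192 RPKM in P2 against 148 and 168 RPKM in P0, with overlap and a log2 fold change of -0.03. Mir22, a locus in an exon of its host transcript Mir22hg, had 0 and 8 reads in P2 against 163 and 91 in P0 (log2 fold change -4.40 ± 0.76, SE, unadjusted limma p 0.000348, adjusted p 0.985). Mir22hg itself stood at 6.10 and 14.9 RPKM in P2 against 17.8 and 19.9 RPKM in P0, lower in both tumors (log2 fold change -0.90, unadjusted limma p 0.0980). Mir19b-1 had 0 and 0 reads in P2 against 232 and 115 in P0, and Mir3057, in an exon of Apba3, had 0 and 0 against 27 and 38. Snora3 had a log2 fold change of -4.22 ± 0.86 (SE, unadjusted limma p 0.00105), Snora75 of -2.88 ± 0.87 (unadjusted p 0.0102) and Snora31 of -4.02 ± 1.45 (unadjusted p 0.0238). None of these had an adjusted p under 0.05 with all 6 libraries in the fit without the block. Without P2 of tumor 2, which leaves P2 of tumor 1 as the only P2 library, limma called 40 genes (0.32% of all tested genes), 39 lower (0.312%) and 1 higher (0.00799%). Of the 210 genes 15 were called, all lower, Mirlet7d, Mir1982, Mir22, Snora3, Snora31 and Snora75 among them. Without P0 of tumor 2 it called Mir1982 alone (0.00799% of all tested genes).

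**Figure D3:**
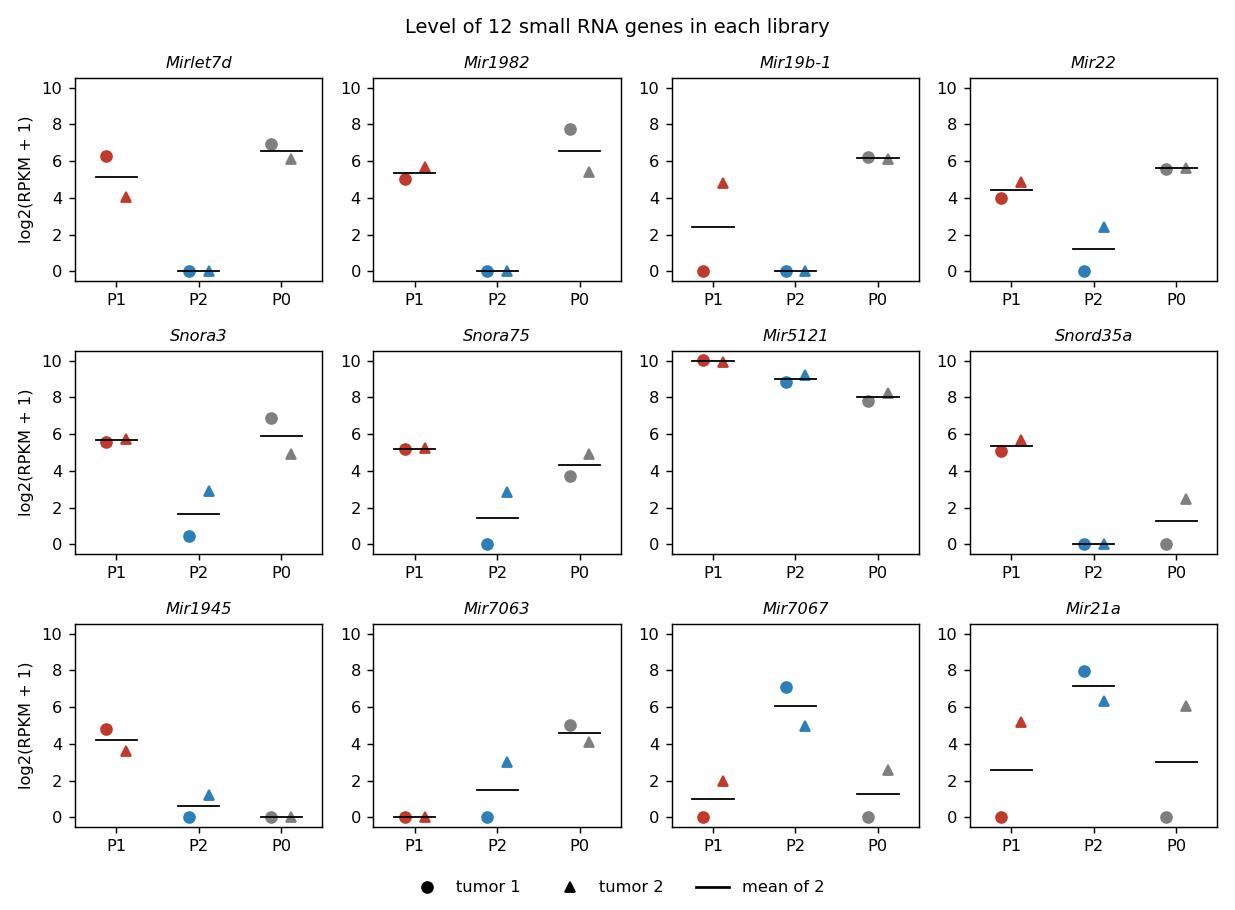
Level of 12 small RNA genes as log2(RPKM + 1) in P1, P2 and P0 of tumor 1 (circles) and tumor 2 (triangles), with the mean of both tumors as a bar. Mirlet7d, Mir1982 and Mir19b-1 lie at 0 in both P2 libraries, and Mir5121 lies highest in P1 and lowest in P0.

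Across the 210 genes limma called 0 in P2 against P0 at an adjusted p under 0.05 (0% of all tested genes), and limma voom on the reads also called 0, or with the block 6 genes (0.048%), none of them among the 210. At an unadjusted p under 0.05, 20 of the 210 genes (9.52%) were lower in P2, where 1.13% of all tested genes were. Another 5 (2.38%) were higher, where 2.78% of all tested genes were. With the tumor as block 28 were lower (1.93% of all tested genes) and 9 higher (4.2%), and with voom 2 were lower (2.07% of all tested genes) and 0 higher (2.33%). The 20 lower genes were 14 microRNA and 6 box H/ACA genes, and 18 of them had no reads in at least 1 library of P2 or P0. All 210 genes passed the filter of at least 1 RPKM in 2 libraries. The groups did not overlap, with P2 below P0, for 24 of them (11.4%, against 13% of all tested genes), and with P2 above P0 for 8 (3.81%, against 14.2%).

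The median log2 fold change in P2 against P0 was -0.43 over the 210 genes, against 0 over all genes tested. Box H/ACA genes had a median of -1.08, with 18 of 26 below 0, and box C/D genes a median of -0.25, with 23 of 40 below 0. MicroRNA genes had a median of -0.40, with 87 of 141 below 0. Within tumor 2 alone, where fewer genes were without reads, 126 of the 210 genes were lower in P2, 75 were higher and 9 were equal, with a median difference of -0.46 on the log2 scale. For box H/ACA genes in tumor 2 the median difference was -1.22, with 18 of 26 lower. With values under 3 reads set to the level of 3 reads, these medians in tumor 2 were -0.44 and -1.23. The median over both tumors depended on single libraries, being 0.43 without P0 of tumor 2, 0 without P2 of tumor 1, -1.68 without P2 of tumor 2 and -1.99 without P0 of tumor 1. Within tumor 1, 54 were lower, 37 were higher and 119 were equal, the last all at 0 in both libraries. In the libraries of a sorted population, fewer cells that use a gene and less RNA per cell cannot be told apart.

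**Figure D4:**
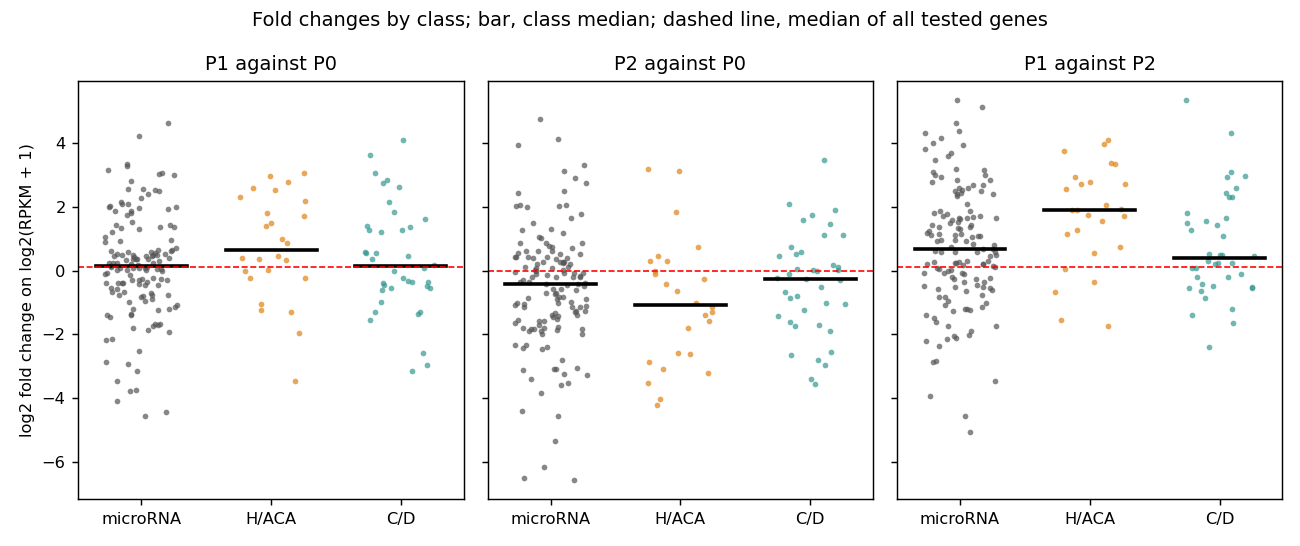
Log2 fold changes of 141 microRNA, 26 box H/ACA and 40 box C/D genes in the 3 comparisons of populations, with the class median as a bar and the median of all tested genes as a dashed line. The box H/ACA median lies at -1.08 in P2 against P0 and at 1.91 in P1 against P2, with wide scatter in every class.

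P2 and P0 of tumor 2 had nearly the same depth, with 19037070 reads in P2 and 19443201 in P0, so reads missing from one or the other can be set side by side. Of the small RNA genes with over 100 reads in P0 of tumor 2, 4 of 28 (14.3%) had no read in P2 of that tumor, against 2 of 10131 other genes (0.0197%). In the reverse direction, of genes with over 100 reads in P2 of tumor 2, 0 of 25 small RNA genes and 18 of 10522 other genes (0.171%) had no read in P0. At 51 to 100 reads in P0 of tumor 2, 4 of 31 small RNA genes (12.9%) and 43 of 1257 other genes (3.42%) had none in P2. At 21 to 50 reads the numbers were 10 of 57 (17.5%) and 154 of 1326 (11.6%), and at 1 to 20 reads 38 of 77 (49.4%) and 402 of 1544 (26%). The group over 100 reads has no upper end, so small RNA genes and other genes were not matched on reads within it. No group was matched on gene length. In tumor 1, of genes with over 100 reads in P0, 30 of 60 small RNA genes (50%) and 1028 of 10522 other genes (9.77%) had none in P2. In P1 of tumor 2 none of the 28 was at 0, whereas in P1 of tumor 1, 14 of the 60 (23.3%) and 275 of the 10522 other genes (2.61%) were. Missing reads in tumor 1 also ran the other way. With over 100 reads in P2 there, 15 of 45 small RNA genes (33.3%) and 574 of 9888 others (5.8%) had none in P0. The 4 genes at 0 in P2 of tumor 2, singled out after their values were seen, were Mirlet7d, Mir19b-1, Snord47 and Snora81. Snord47, in the growth-arrest transcript Gas5, had 0 reads in P2, against 177 in P0 and 84 in P1 of tumor 2, and was at least 57.7-fold lower in P2 than in P0. It had no reads in any tumor 1 library. Snora81, in Eif4a2, had 0 reads in P2, against 108 in P0 and 37 in P1 of tumor 2, and was at least 35.2-fold lower in P2 than in P0. In tumor 1 it had 1 read in P2, 2 in P0 and 248 in P1. The hosts were present in P2 of tumor 2, Gas5 at 62.4 RPKM against 101 RPKM in P0, and Eif4a2 at 149 RPKM against 215 RPKM.

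In P2 against P0, 78 of the 210 genes had a positive log2 fold change. Mir7067 had 205 and 37 reads in P2 against 0 and 6 in P0 (log2 fold change 4.77 ± 1.08, SE, unadjusted limma p 0.00211). Snora68 had 180 and 32 reads in P2 against 0 and 30 in P0 (3.20 ± 1.19, unadjusted limma p 0.0268). For both genes the P2 libraries lay above both P0 libraries on the RPKM scale. Mir5121 had a log2 fold change of 1.01 ± 0.34 (SE, unadjusted limma p 0.0183), and both P2 libraries lay above both P0 libraries. Mir7654, in Arglu1, had 250 and 66 reads in P2 against 0 and 43 in P0, and Mir6954, in Mroh1, had 9 and 21 against 0 and 4. Mir21a, in an exon of Vmp1 and known as an oncogenic microRNA in breast cancer, had 553 and 140 reads in P2 against 0 and 119 in P0. Its P0 library of tumor 1 was at 0, and in tumor 2 its level was 79.9 RPKM in P2 against 66.5 RPKM in P0.

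CD29hi CD61+ BCSCs (P1) were compared with ALDH+ BCSCs (P2) to ask where the 2 stem cell populations differ. Small RNA genes stood higher in P1 more often than lower, and the genes with the lowest p were again Mir1982 and Mirlet7d. Their log2 fold changes in P1 against P2 were 5.35 ± 0.72 and 5.15 ± 0.71 (SE), with an adjusted limma p of 0.469 for both. In tumor 2 the level in P1 was at least 23.8-fold higher than in P2 for Mir1982 and at least 9.99-fold higher for Mirlet7d. Snord35a, in an intron of Rpl13a, had 138 and 95 reads in P1 and 0 and 0 in P2 (5.36 ± 0.86, adjusted limma p 0.537). P0 had 0 and 8 reads of it, so both P1 libraries lay above all others.

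In all, 11 of the 210 genes (5.24%) had reads in both P1 libraries and none in either P2 library, where 0.464% of all tested genes did. These shares were not matched on reads or gene length. In P2 of tumor 1, 73.8% of the 210 genes and 25.5% of other genes had no reads. The 11 genes were Mirlet7d, Mir1982, Snord35a, Snora43, Mir140, Mir1966, Mir6914, Mir6922, Mir6991, Mir7013 and Mir7648. Mir140, in a retained intron of Wwp2 and known for its part in cartilage, had 137 and 13 reads in P1 and 0 and 0 in P2. Mir1966 had 117 and 30 reads in P1 and 0 and 0 in P2. Mir6991 had 96 and 7 reads in P1 and 0 and 0 in P2, and Mir7648 had 50 and 23 against 0 and 0. For the 11 genes the lowest P1 library held between 7 and 95 reads, so that some of these differences rest on few reads. Their 9 hosts in the table all had reads in both P2 libraries, Wwp2 for example at 11.1 and 17.5 RPKM and Ankrd52, the host of Mir6914, at 29.1 and 28.5 RPKM. No gene of the 210 showed the opposite pattern, with reads in both P2 libraries and none in either P1 library, which 0.024% of all tested genes did.

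Limma called 0 of the 210 genes in P1 against P2 (0% of all tested genes) at an adjusted p under 0.05. Voom called 0 of the 210 and 7 genes in all (0.0559%), and voom with the block 0 of the 210 and 12 in all (0.0959%). Without P2 of tumor 2, limma called 55 genes (0.44% of all tested genes), 52 higher in P1 (0.416%) and 3 lower (0.024%), and of the 210 it called 13 higher and 1 (Mir145a) lower. At an unadjusted p under 0.05, 23 (11.0%) were higher in P1, where 1.45% of all tested genes were, and 3 (1.43%) were lower, where 1.05% were. With voom no gene of the 210 reached an unadjusted p under 0.05 in either direction, where 1.6% of all tested genes were higher and 2.01% lower, and with limma and the block 34 were higher (2.54% of all tested genes) and 6 lower (1.95%). The groups did not overlap for 34 genes higher in P1 (16.2%, against 18.2% of all tested genes) and for 6 lower (2.86%, against 12.1%). The median log2 fold change was 0.76 over the 210 genes, against 0.11 over all tested genes. It was 1.91 for box H/ACA genes, of which 22 of 26 were above 0, and 0.38 for box C/D genes, of which 26 of 40 were. Within tumor 2 alone 132 genes were higher in P1 and 72 lower, with a median difference of 0.54 on the log2 scale, and for box H/ACA genes 20 of 26 were higher with a median of 1.40. With values under 3 reads set to that level, these medians were 0.54 and 1.45. The median of the 210 genes over both tumors was 0 without P1 of tumor 2, 0.27 without P2 of tumor 1, 1.76 without P2 of tumor 2 and 1.97 without P1 of tumor 1. Snora3 had a log2 fold change of 3.99 ± 0.86 and Snora75 of 3.76 ± 0.87 in P1 against P2 (SE, unadjusted limma p 0.0015 and 0.00236).

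In P1 against P2, 65 of the 210 genes had a negative log2 fold change. Mir7067 had 0 and 4 reads in P1 against 205 and 37 in P2 (log2 fold change -5.06 ± 1.08, SE, unadjusted limma p 0.00147). Mir466n, in an intron of Sfmbt2, had 0 and 6 reads in P1 against 138 and 20 in P2 (-3.93 ± 1.12, unadjusted p 0.00763). Mir6954 had 5 and 0 reads in P1 against 9 and 21 in P2 (-2.85 ± 0.95, unadjusted p 0.0165). Mir21a had 0 and 70 reads in P1 against 553 and 140 in P2, and Mir6925 had 0 and 46 against 102 and 35. All of these lay lower in both P1 libraries than in both P2 libraries on the RPKM scale except Mir6925, which overlapped.

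CD29hi CD61+ BCSCs (P1) were last set against bulk cells (P0). Mir5121 was the small RNA gene with the lowest p, at 1040 and 975 RPKM in P1 and 219 and 297 RPKM in P0 (log2 fold change 1.98 ± 0.34, SE, unadjusted limma p 0.000383, adjusted p 1.00). Its host Rpl13a was at 441 and 366 RPKM in P1 and 222 and 244 RPKM in P0 (0.78 ± 0.31, unadjusted limma p 0.0326). Both therefore stood higher in each P1 library than in each P0 library. The Mir5121 locus overlaps that of Snord33, which had 0 and 14 reads in P1 and 0 and 1 in P0.

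Reads in both P1 libraries and none in either P0 library were found for 3 genes (1.43%, against 0.288% of all tested genes). Mir1945, which lies outside annotated genes, had 102 and 19 reads in P1 and 0 and 0 in P0, and was at least 5.70-fold higher in P1 of tumor 2. Snora43 had 60 and 11 reads in P1 and 0 and 0 in P0, and Snord15b, in the ribosomal protein gene Rps3, had 129 and 4 against 0 and 0. Snord35a and Mir6991 also stood higher in P1, with log2 fold changes of 4.11 ± 0.86 and 3.29 ± 0.89 (SE, unadjusted limma p 0.00125 and 0.00558), Mir6991 having 96 and 7 reads in P1 and 0 and 1 in P0. Mir7063, in an intron of the clathrin adaptor gene Ap2a2, showed the opposite, with 0 and 0 reads in P1 and 103 and 29 in P0, and was at least 10.7-fold lower in P1 of tumor 2. Mir145a, a locus known for smooth muscle, also had 0 and 0 reads in P1 against 1 and 9 in P0. These were 2 genes (0.952%, against 0.104% of all tested genes). Neither these shares nor those of the opposite pattern were matched on reads or gene length. Ap2a2 itself had 21.4 and 25.1 RPKM in P1 and 22.3 and 24.0 RPKM in P0.

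In P1 against P0 limma called 0 of the 210 genes (0% of all tested genes). Voom called 0 of the 210 and 6 genes in all (0.048%), or 3 in all (0.024%) with the block. At an unadjusted p under 0.05, 12 (5.71%) were higher in P1 and 8 (3.81%) lower, where 1.57% and 0.328% of all tested genes were. With the block 16 were higher (2.78% of all tested genes) and 12 lower (0.647%), and with voom 1 was higher (2.14% of all tested genes) and 0 lower (1.73%). The groups did not overlap for 23 genes higher in P1 (11.0%, against 18.7% of all tested genes) and for 16 lower (7.62%, against 9.88%). Within tumor 2 the directions were balanced, with 102 genes higher in P1 and 104 lower. The median log2 fold change was 0.21 over the 210 genes, against 0.12 over all tested genes. Its sign depended on single libraries, being -0.95 when P1 of tumor 2 was left out and -0.78 when P0 of tumor 1 was, against 1.17 when P1 of tumor 1 was left out and 1.57 when P0 of tumor 2 was. Mir1291 had 0 and 5 reads in P1 and 161 and 78 in P0, and Snora34, whose locus overlaps it in Kansl2, had 11 and 46 in P1 and 161 and 47 in P0. Mir19b-1 had 0 and 50 reads in P1 and 232 and 115 in P0, Mir7670 had 0 and 5 and 261 and 15, and Snora24, in Snhg8, had 0 and 20 and 218 and 50. For each of these 5 genes both P1 libraries lay below both P0 libraries on the RPKM scale.

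Loci in the same host differed from each other. Within Rpl13a, Mir5121 had reads in every library, whereas Snord34 had none in any tumor 1 library and 27 reads in P1, 11 in P2 and 53 in P0 of tumor 2. Snord32a had 0 and 52 reads in P1, 0 and 29 in P2 and 184 and 3 in P0. The order of the populations therefore differed between Snord35a, which was highest in P1, and Snord34, which was highest in P0 of tumor 2, though both lie in introns of the same transcript.

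Within Mir17hg, the host stood at 4.91 and 10.2 RPKM in P1, 3.40 and 5.70 RPKM in P2 and 10.1 and 11.5 RPKM in P0, lower in both P2 libraries than in both P0 libraries. Its log2 fold change in P2 against P0 was -1.12, with an unadjusted limma p of 0.0830. Mir19a, with the same seed as Mir19b-1, had 131 and 53 reads in P1, 0 and 27 in P2 and 178 and 41 in P0. Mir92-1 had 317 and 18 reads in P1, 1 and 0 in P2 and 0 and 60 in P0, and Mir20a had reads in tumor 2 alone, 13 in P1, 0 in P2 and 23 in P0. Each of these 4 loci had fewer reads in P2 than in P0 of tumor 2, whereas in tumor 1 Mir92-1 and Mir20a were at 0 or 1 in both.

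**Figure D5:**
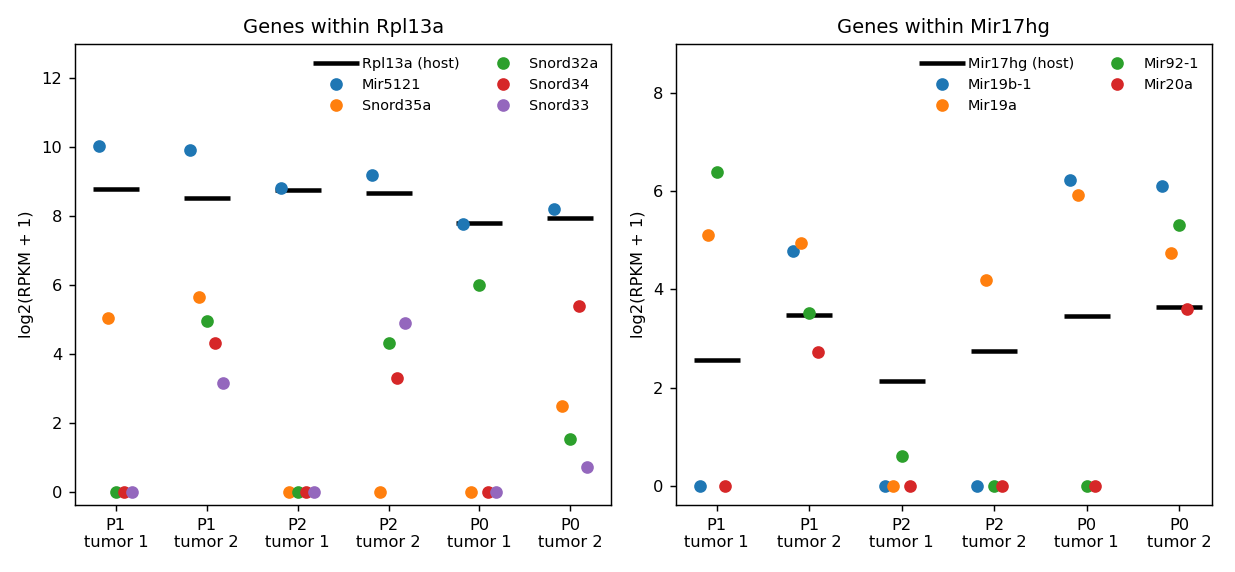
Level as log2(RPKM + 1) of the small RNA genes within Rpl13a (left) and Mir17hg (right) in each library, with the host as a black bar. Rpl13a is present in all 6 libraries while 3 of its snoRNA genes lie at 0 in P1 and all 4 in P2 of tumor 1, and the Mir17hg loci lie at or near 0 in P2 except Mir19a in tumor 2.

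Differences in the small RNA gene and in its host were then set side by side across loci. Over 179 genes with a tested host, the correlation between the log2 fold changes of gene and host was 0.149 in P1 against P0, 0.347 in P2 against P0 and 0.110 in P1 against P2. For the 57 exonic loci it was 0.316, 0.508 and 0.305, and for the 41 in retained introns 0.289, 0.469 and 0.0490. For the 81 in other introns it was 0.0198, 0.0552 and -0.0268. The points share the same 6 libraries and some share a host, so these values are descriptions. Of the 20 genes with an unadjusted p under 0.05 and lower in P2 than in P0, 18 had a tested host, which came to 15 hosts. None of the 15 had an unadjusted p under 0.05 (1.13% of all tested genes lower, 2.78% higher), 11 were lower in P2, and their median log2 fold change was -0.08. Of the 18 hosts behind genes higher in P1 than in P2, and of the 2 behind genes lower, none had an unadjusted p under 0.05 (1.45% of all tested genes higher, 1.05% lower). Of the 4 hosts behind genes higher in P2 than in P0, 1 was higher at that threshold (2.78% of all tested genes). The same held for 1 of the 9 hosts behind genes higher in P1 than in P0 (1.57%). Both times the host was Rpl13a. Of the 7 hosts behind genes lower in P1 than in P0, none passed that threshold (0.328% of all tested genes lower). At shares this low, counts over so few hosts do not show whether hosts changed with their loci.

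Many snoRNAs and microRNAs are carried by non-coding host genes. Of 16 tested genes of this list, which holds Mir17hg and Mir22hg, 14 had a negative log2 fold change in P2 against P0, as did 6254 of all 12512 tested genes. The median of the list was -0.45, against 0 over all tested genes. At an unadjusted p under 0.05, only Snhg1 and Snhg3 were lower (1.13% of all tested genes) and Snhg18 was higher (2.78%). Snhg1, the host of Snord22, was at 56.6 and 63.1 RPKM in P2 and at 122 and 144 RPKM in P0 (log2 fold change -1.14, unadjusted limma p 0.00464). Snhg3 was at 0 and 17.5 RPKM in P2 and at 26.4 and 24.4 RPKM in P0. Snhg18 was at 4.99 and 8.50 RPKM in P2 and at 0 and 2.57 RPKM in P0. The summed level of the list was 220 and 287 RPKM in P2 and 394 and 447 RPKM in P0, without overlap. In P1 the sum was 388 and 405 RPKM. Snhg1 and Gas5 held most of the sum in P2 of tumor 1, at 56.6 and 82.4 RPKM. Of the tested genes, Snhg3, Snhg7, Snhg8, Snhg10, H19 and Dleu2 were at 0 in that library, as were Snhg6, Snhg18 and Dleu2 in P0 of tumor 1. In P1 against P2, 14 of the 16 genes were higher in P1, as were 7369 of all 12512 tested genes. The median was 0.62, against 0.11 over all tested genes. H19, an imprinted transcript that carries a microRNA, was at 7.45 and 34.0 RPKM in P1, 0 and 3.71 RPKM in P2 and 0.0114 and 3.95 RPKM in P0. At an unadjusted limma p under 0.05, H19 and Snhg18 were higher in P1 than in P0 (1.57% of all tested genes). H19 and Snhg1 were higher in P1 than in P2 at that threshold (1.45%).

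The genes that make or bind small RNAs were described as 3 lists. Of 17 tested genes of microRNA processing and action, none reached an unadjusted p under 0.05 in any of the 3 comparisons, and the median log2 fold change was 0.05 in P1 against P0, -0.23 in P2 against P0 and 0.30 in P1 against P2. Ddx5 had the highest level, with 885 and 853 RPKM in P1, 646 and 719 RPKM in P2 and 603 and 966 RPKM in P0. Of 11 tested genes of the box C/D particle, which holds the methyltransferase fibrillarin (Fbl), none reached an unadjusted p under 0.05, and the median was 0.23, 0.19 and 0.06 in the same comparisons. Nop58, with the highest level of that list, was at 217 and 104 RPKM in P1, 213 and 97.3 RPKM in P2 and 143 and 129 RPKM in P0. Of 6 tested genes of the box H/ACA particle, 1 reached it, Nhp2, at 49.7 and 49.2 RPKM in P2 and 28.9 and 24.9 RPKM in P0 (log2 fold change 0.86, unadjusted limma p 0.0298). Of all tested genes, 2.78% were higher in P2 than in P0 at that threshold. The median of the list was 0.06 in P1 against P0, 0.43 in P2 against P0 and -0.32 in P1 against P2. Nhp2 also had the highest mean level of that list.

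The populations also differed in cell type markers. All 5 luminal epithelial markers were present in every library, with sums of 9939 to 17980 RPKM, but they differed in direction. Cldn4 was at 682 and 1174 RPKM in P1 and 776 and 1497 RPKM in P2, below both P0 libraries (1948 and 2140 RPKM). Krt19 was higher in P2 (1926 and 584 RPKM) than in P0 (983 and 316 RPKM) within each tumor, with overlap between tumors. By log2 fold change, 3 of the 5 were higher in P2 than in P0, and 1 was higher in P1 than in P0. Aldh1a3, the enzyme gene linked to ALDH sorting, stood at 693 and 182 RPKM in P2 but 146 and 51.6 RPKM in P0. Itgb3, which encodes CD61, was at 13.2 and 13.9 RPKM in P1 and 17.6 and 9.29 RPKM in P0, with overlap. The 4 basal markers summed to 624 and 761 RPKM in P1, 491 and 349 RPKM in P2 and 234 and 259 RPKM in P0. Krt14 made up most of these sums, at 456 and 675 RPKM in P1, 471 and 339 RPKM in P2 and 224 and 245 RPKM in P0, whereas Krt5 was at 4.67 and 3.52 RPKM in P2 and 3.23 and 8.87 RPKM in P0, and 2 of the 4 markers had a positive log2 fold change in P2 against P0. The 4 fibroblast markers (Col1a1, Col3a1, Dcn and Pdgfra) were all higher in P2 than in P0 and summed to 47.0 and 254 RPKM in P2, against 0.934 and 4.86 RPKM in P0. In P1 they summed to 5.62 and 54.7 RPKM. Dcn and Pdgfra were at 0 in P0 of tumor 1, the endothelial markers summed to at most 1.29 RPKM and the lymphocyte markers to at most 2.23 RPKM in any library. The 3 leukocyte and macrophage markers in the table summed to 3.56 and 14.3 RPKM in P1, 9.39 and 12.8 RPKM in P2 and 0 and 8.34 RPKM in P0. The part of other cell types in the levels of small RNA genes was not tested.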

How the data were processed

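Poly(A) RNA of sorted cells was sequenced on a HiSeq instrument, and the authors aligned reads with the standard Illumina pipeline. Aligner, genome build, annotation and counting are not given in the sources used here. The deposited table holds RPKM of 14897 genes in 6 libraries. It also holds the authors' mean normalized signal of the P1 and of the P0 libraries (size-factor scaled), and the authors' fold change and p-values for P1 against P0, which were not used. Gene lengths were solved from these mean signals, and RPKM became whole reads (within 0.01 reads) for 14896 genes. Library totals were 48008802 and 21577459 (P1), 23773850 and 19037070 (P2) and 36200687 and 19443201 (P0).

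Populations were compared with limma 3.58.1 in R 4.3.3 on log2(RPKM + 1), with an intensity trend, over the 12512 named genes that reached 1 RPKM in 2 or more libraries. The model held all 6 libraries and no block, and the Benjamini-Hochberg threshold was 0.05. The tumor pairs the libraries: over all tested genes, deviations of a tumor's libraries correlated between populations at 0.185 (P1 and P0), 0.211 (P2 and P0) and 0.242 (P1 and P2). Over the 210 genes these correlations were weaker, at 0.135, 0.134 and 0.159. The fit with a replicate block for the tumor is therefore given where it changes a call. Functions were tested on simulated data. Hosts were found from RefSeq positions (GRCm38.p6) on GENCODE M21 gene models of GRCm38, and 209 of 210 genes matched RefSeq by gene ID. Overlapping loci and antisense partners may share reads: Mir24-1 and Mir3074-1, on opposite strands, had the same reads in all libraries.

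Genes are named by rule: the 5 with the most reads per class, the 5 with the lowest p per direction and comparison, those called under the limma or voom fits, those at 0 in both libraries of 1 population and present in both of another, and their hosts. A certain host gene is not reported here. Of the lists of small RNA processing, particles and non-coding hosts, the highest gene and those with an unadjusted p under 0.05 are named. Of the cell type markers only some are named. Exceptions are Snora81, Snord47, Snora34 and the loci that share a host. The genes, lists and tests were chosen with earlier results of these data known. Alternatives were other pseudocounts (0.1 and 5), filters and scaling, the block, voom on reads (scaled by trimmed mean of M-values) and each library left out. Voom with the block, counts at an unadjusted p and values of tumor 2 alone were added after seeing the data. Python 3.11.15, numpy 2.4.6, pandas 2.3.3 and matplotlib 3.10.9 were used.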

Additional observations from a re-analysis of the deposited data

How the results depend on the processing

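None of the fold changes followed one by one under the 14 alternative settings changed direction, 12 in P1 against P0, 13 in P2 against P0 and 20 in P1 against P2. Those of Snord47, Snora81 and Snora34 were not followed. The followed genes were picked from these same data. The grounds were a low p, or 0 reads in both libraries of 1 population and reads in both of another. Such fold changes could hardly change direction, so their stable direction says little. The tumor as a replicate block called 3 genes in P2 against P0, 2 of them small RNA genes, and raised the small RNA genes at an unadjusted p under 0.05 to 9 higher in that comparison and to 6 lower in P1 against P2. A pseudocount of 0.1 called 2 genes in P2 against P0, both small RNA genes, and left 7 higher and 3 lower at an unadjusted p under 0.05 in P1 against P0. Voom on reads called 6 genes in P1 against P0 and 7 in P1 against P2, none of the 210. At an unadjusted p under 0.05 it left 1 higher and 0 lower in P1 against P0, 0 higher and 2 lower in P2 against P0, and 0 in both directions in P1 against P2. Voom with the block called 3 genes in P1 against P0, 6 in P2 against P0 and 12 in P1 against P2. It left 1 of the 210 higher and 0 lower in P1 against P0, 0 higher and 5 lower in P2 against P0, and 4 higher and 0 lower in P1 against P2. The cause of these differences was not tested.

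Leaving out each library in turn gave 0 to 40 genes called in P2 against P0, 0 to 15 of them small RNA genes, and 0 to 55 in P1 against P2, 0 to 14 of them small RNA genes. The highest values came without P2 of tumor 2, where P2 of tumor 1 is alone and is assumed to vary like the other populations, and there 155 of the 210 genes had no reads. At an unadjusted p under 0.05 the ranges were 6 to 36 higher and 3 to 15 lower in P1 against P0, 4 to 21 higher and 15 to 36 lower in P2 against P0, and 21 to 51 higher and 2 to 22 lower in P1 against P2. The median log2 fold change of the 210 genes in P2 against P0 ranged between -1.99 without P0 of tumor 1 and 0.43 without P0 of tumor 2, so its sign depends on which P0 library is kept. Reads missing in tumor 1 limit what a 0 there shows, and whether low values were set to 0 in tumor 2 is not known either. Counting genes below 3 reads in place of 0 reads moved no library's number by over 1.5 times. This check could hardly move them, since few genes had 1 or 2 reads. In P2 of tumor 2, for example, 66 genes were under 3 reads and 65 at 0.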
